A study of Mus musculus with 2 samples.

Results

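The genes described here are 9 genes of the lung epithelium, *Sftpa1*, *Sftpb*, *Sftpc*, *Sftpd*, *Scgb1a1*, *Scgb3a2*, *Ager*, *Cyp2f2* and *Abca3*, read in E18.5 mouse cochleae. The group was selected on measured values of the same arrays, in which *Sftpc* had differed widely between them, so its differences are a description and no test of them was made. Members were all probe sets, the sets of probes that read 1 transcript, that the array annotation pairs with a single one of these symbols. All 9 genes were found, with 13 of 22626 probe sets that are not controls and among 12393 genes measured. Where a gene had several probe sets, its values are those of the strongest one on average, and other probe sets are marked as such.

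The study compared cochleae of *Igf1*-/- null and *Igf1*+/+ wild type embryos, both on a C57BL/6J background and obtained from heterozygous parents, to find genes that depend on IGF-I in the inner ear. The otic capsule was part of the dissected tissue and vestibular tissue was not, and embryos of the null line, made by targeted disruption, die at birth. Each of the 2 arrays analysed carries a label of 8 pooled cochleae, while the design text speaks of pools from 2 embryos and of 3 independent pools. Which genotype each array holds is open, since the array with +/+ in its title is described as null in its other labels and the array with −/− in its title as wild type. Both arrays are named by their titles here, and every difference is the level on the −/−-titled array minus that on the +/+-titled array, so a negative value stands for a lower level on the −/−-titled array.

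*Igf1*, the targeted gene, was read on both arrays by 3 probe sets, and all 3 were lower on the −/−-titled array, with log2 differences of −0.42, −0.75 and −0.58. It was read clearly on both arrays, at 11.42 and 11.03 by its strongest probe set, and since no source used here states where the allele was disrupted, the genotypes were not assigned from it. Levels are on a log2 scale, with a median over all probe sets of 6.58 on the +/+-titled array and 6.63 on the −/−-titled array, and differences were centred on their median of 0.022. Each title has a single array and no replicate, so no p-value is given, and precision is limited by the number of arrays. Probe sets of the same gene were the only repeated measurement. Their differences had a pooled SD of 1.15 where the higher of both levels was below 5.30, of 0.311 from there to 7.75, and of 0.103 above. This SD comes from the same 2 arrays and holds no variation between pools, dissections or hybridisations. It is thus no error of a difference between the arrays. Of 16 genes of the cochlea and its capsule, 12 lay above the probe set median of each array, among them *Otor*, the fibrocyte-derived protein gene, at 12.57 and 12.37 and *Col2a1*, a cartilage collagen, at 13.42 and 13.45 on the +/+- and −/−-titled arrays. Of the same 16 genes, 12 were lower and 4 higher on the −/−-titled array, with a median difference of −0.24. Over all genes 49.5% were lower. The 4 higher genes, *Otog*, *Col2a1*, *Myo7a* and *Col9a1*, were nearly even, at 0.030 or less. Below −1 were *Kcne1* and *Kcnq1*, subunits of the potassium channel of the stria vascularis, at −3.73 and −2.42, both read at low level on that array, at 0.72 and 3.42. Among genes of higher level *Gjb2*, connexin 26, differed by −0.80 and the otic mesenchyme factor *Pou3f4* and the tectorial membrane gene *Tectb* both by −0.64. The median of the cochlear list was thus also below 0, by less than that of the genes described here. Nothing is read from the count, and the last 5 genes are named because of their values.

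Pulmonary surfactant is the film of phospholipid and protein that lowers surface tension in the air spaces, and its genes rise in the fetal lung before birth. Type II alveolar cells make it and store it in lamellar bodies, flat type I cells cover most of the alveolar surface, and club cells line the bronchioles and secrete small protective proteins. The transcription factor NKX2-1 and forkhead factors activate many of these genes. Surfactant proteins and airway secretory proteins are also made by epithelia outside the lung, among them those of the Eustachian tube and nose.

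The sequences before the start of members show whether the letters bound by these factors stand there. All 9 members matched the RefSeq genes of GRCm38.p6 by gene identifier, and the RefSeq promoter table held 5 of them, *Sftpa1*, *Sftpb*, *Ager*, *Cyp2f2* and *Abca3*. *Sftpc*, *Sftpd*, *Scgb1a1* and *Scgb3a2* are named only. The 250 bases before the start are printed 5′ to 3′ for *Sftpa1*, *Sftpb* and *Cyp2f2*, the 3 of these that held a core bound by NKX2-1. *Sftpa1* and *Sftpb* were lower on the −/−-titled array and *Cyp2f2* differed little. *Ager*, which was also lower, and *Abca3*, which also differed little, held no match and are not printed. Capitals mark CTCAAG and CACTTG, which are cores bound by NKX2-1, TGTTTNC, a forkhead core, and TATAAA, each on either strand.
Sftpa1 (chr14:41131538-41131787, + strand): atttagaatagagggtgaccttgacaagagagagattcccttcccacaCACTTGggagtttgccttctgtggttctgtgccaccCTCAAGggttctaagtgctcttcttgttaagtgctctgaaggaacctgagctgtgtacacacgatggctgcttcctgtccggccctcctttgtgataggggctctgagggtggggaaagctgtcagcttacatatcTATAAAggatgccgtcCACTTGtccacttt
Sftpb (chr6:72304360-72304609, + strand): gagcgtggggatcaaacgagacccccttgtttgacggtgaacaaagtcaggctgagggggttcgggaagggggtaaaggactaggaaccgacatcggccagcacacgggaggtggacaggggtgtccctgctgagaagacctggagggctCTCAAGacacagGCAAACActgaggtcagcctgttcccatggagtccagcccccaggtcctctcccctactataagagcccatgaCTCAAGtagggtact
Cyp2f2 (chr7:27119705-27119954, + strand): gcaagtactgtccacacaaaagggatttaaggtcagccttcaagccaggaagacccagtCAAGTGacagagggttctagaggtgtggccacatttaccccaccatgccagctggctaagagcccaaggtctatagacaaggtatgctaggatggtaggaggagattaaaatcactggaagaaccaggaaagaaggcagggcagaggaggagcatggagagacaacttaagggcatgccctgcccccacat

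In *Sftpa1*, CACTTG began at positions −202 and −14, CTCAAG at −166 and TATAAA at −30, counted so that −1 is the base just before the start. In *Sftpb*, CTCAAG began at −100 and −15, and a forkhead core lay on the other strand from −88. *Cyp2f2* held 1 CACTTG on the other strand, from −191, and the windows of *Ager* and *Abca3* held none of these letters. CTCAAG stood in 13.3% of all 32851 promoter windows of this length, CACTTG in 11.6%, either of them in 22.6%, TGTTTNC in 17.8% and TATAAA in 12.4%. CTCAAG on one strand and CACTTG on the other can overlap, though none did here. A match is a description of letters and shows no binding, and no match says only that these letters are not in this window.

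All 9 genes were lower on the −/−-titled array, 6 of them by more than 1 log2 unit, a size limit used here in place of a test, though *Abca3* was lower only by its strongest probe set. The 6 were *Scgb1a1*, *Sftpa1*, *Ager*, *Scgb3a2*, *Sftpc* and *Sftpb*, with differences from −5.32 to −1.42, while *Sftpd*, *Abca3* and *Cyp2f2* differed by −0.76 to −0.11. Over all 12393 genes, 4.07% were below −1 and 5.54% were above 1. Because these genes were chosen for such a difference in the same arrays, nothing is read from the count. The median difference of the 9 genes was −3.49, and that of all genes was 0.0028. The median of the 9 was −1.40 when readings below the 25th percentile of both arrays, 4.11, were raised to it (the raised floor). It was −1.72 when the probe sets of a gene were averaged, and −1.42 over the 5 members of higher level. That −1.42 is the value of *Sftpb*, which like *Scgb3a2* is among the 5 only through the +/+-titled array. The size of the median thus depends on the handling of low readings and of further probe sets. In whole cochlear tissue, fewer cells of a type and less RNA per cell cannot be told apart.

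**Figure D1:**
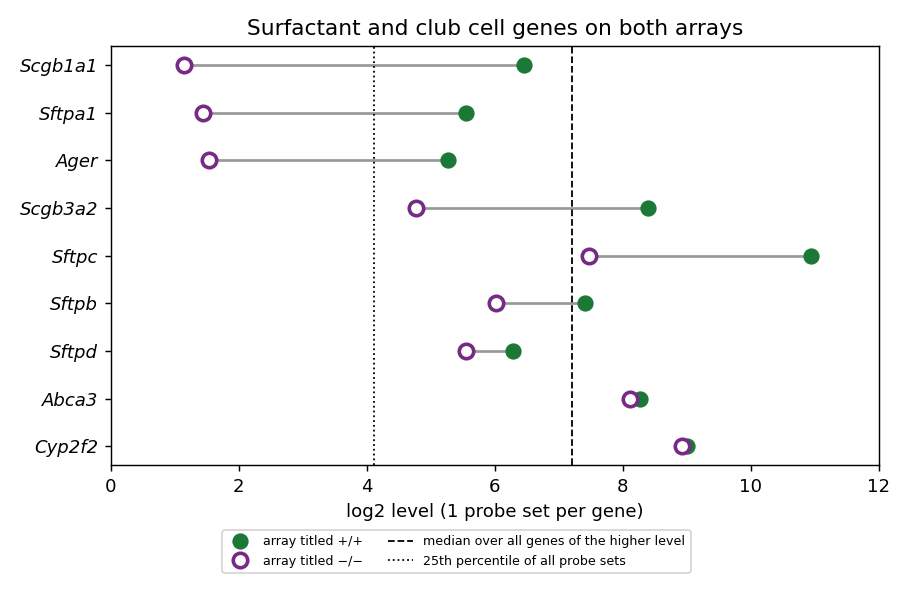
Log2 level of the 9 genes on the +/+-titled array (green discs) and on the −/−-titled array (purple rings). Grey lines connect the 2 readings of a gene, each from 1 probe set. The dashed line is the median over all genes of the higher of both levels, 7.21, and the dotted line the 25th percentile of all probe sets, 4.11. *Sftpc* and *Scgb3a2* are joined by long lines at high level, *Scgb1a1*, *Sftpa1* and *Ager* fall below the dotted line on the −/−-titled array, and *Abca3* and *Cyp2f2* nearly coincide.

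*Sftpc* encodes surfactant protein C, a very hydrophobic peptide made by type II cells that helps spread the surfactant film. Its level was 10.94 on the +/+-titled array, above 97.6% of the probe sets of that array, and 7.47 on the −/−-titled array, above 63.1%. The gene thus lay above the array median on both arrays, and its log2 difference of −3.49 is an 11.3-fold lower level on the −/−-titled array. The SD between probe sets of 1 gene at such levels was 0.103. A second probe set of *Sftpc*, whose name ending marks probes that may also read other transcripts, was at 1.15 and 0.26, near the floor of both arrays, with a difference of −0.90, and the mean over both was −2.20. Both probe sets were lower on the −/−-titled array, but only the first was read well above the floor. At levels as low as those of the second, the SD between probe sets was 1.15, so nothing is read from its direction.

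*Sftpb* encodes surfactant protein B, without which lamellar bodies do not form and breathing fails at birth. Its level was 7.41 on the +/+-titled array and 6.01 on the −/−-titled array, a difference of −1.42 or 2.68-fold. It stood above the array median on the former and below it on the latter. *Abca3* encodes the transporter that loads phospholipid into lamellar bodies. Its level was 8.27 on the +/+-titled array and 8.11 on the −/−-titled array, a difference of −0.19, against an SD of 0.103 between probe sets at this level. The other probe sets of *Abca3* differed by 0.070 at levels of 6.88 and 6.97 and by 0.98 at levels of 4.25 and 5.26. These 3 probe sets do not agree on a direction, and the mean over them was 0.29. The strongest of them lay above the median of both arrays.

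*Sftpa1* and *Sftpd* encode the collectins SP-A and SP-D, soluble lectins that bind microbes in the airways. *Sftpa1* was at 5.55 on the +/+-titled array and 1.44 on the −/−-titled array, a difference of −4.13. The level on the −/−-titled array lay at the 10.3rd percentile of its probe sets, and with the raised floor the difference was −1.44 (2.71-fold). The weaker probe set of *Sftpa1* was at 0.63 and 1.34, a difference of 0.68 in the opposite direction, and both of its levels were below the 25th percentile. *Sftpd* was at 6.28 and 5.55 on the +/+- and −/−-titled arrays, a difference of −0.76 or 1.69-fold, where the SD between probe sets was 0.311. The levels of *Sftpd* lay below the array median on both arrays.

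*Scgb1a1* encodes the club cell secretory protein, the most abundant product of club cells. The level of *Scgb1a1* was 6.45 on the +/+-titled array, close to the array median, and 1.15 on the −/−-titled array, where 9.03% of probe sets were as low. The difference was −5.32, and −2.34 with the raised floor, so its size depends on how readings near the floor are taken. *Scgb3a2*, a second secretoglobin of the airways that is switched on early in lung development, was at 8.40 and 4.76, a difference of −3.66 or 12.6-fold. Both of these levels were above the 25th percentile, and the raised floor left −3.63. *Cyp2f2*, the cytochrome P450 with which club cells oxidise naphthalene, was at 9.0 on the +/+-titled array and 8.92 on the −/−-titled array. Its difference of −0.11 was close to the SD between probe sets at its level, 0.103, and it lay above 84.8% of probe sets or more on both arrays. The 3 club cell genes were thus unequal, with both secretoglobins far apart between the arrays and *Cyp2f2* nearly level.

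*Ager* encodes RAGE, a receptor of the immunoglobulin family that type I cells carry in large amounts. Its level was 5.27 on the +/+-titled array and 1.53 on the −/−-titled array, a difference of −3.75. With the raised floor it was −1.16, and the SD between probe sets where the higher level was as low as this was 1.15. The reading of *Ager* lay below the array median on both arrays. Its higher level is just below 5.30, the edge at which the SD used here changes. *Sftpa1* and *Scgb1a1* were read as low on the −/−-titled array, so the 3 genes are not ranked by precision.

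**Figure D2:**
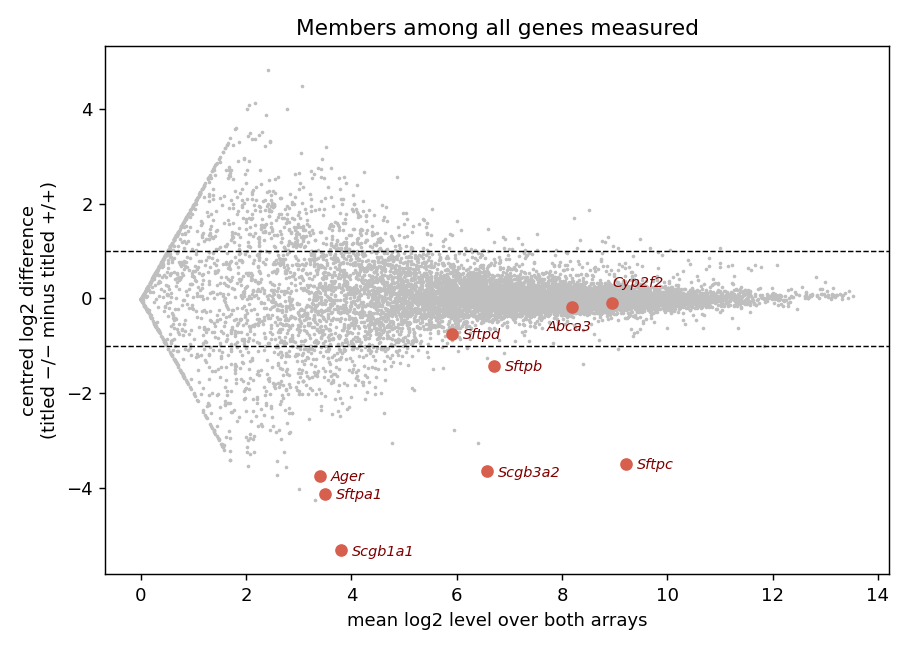
Centred log2 difference (array titled −/− minus array titled +/+) against log2 level, averaged over the arrays, with 1 grey point for each of 12393 genes and the 9 surfactant and club cell genes in red. The dashed lines mark 1 and −1. *Sftpc* at −3.49 and *Scgb3a2* at −3.66 lie far below the narrow band of genes of like level, and *Abca3* and *Cyp2f2* lie within it.

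The spread of all genes depended on level, so the members were also set beside genes of higher level. Of 6196 genes whose higher level was above the median of 7.21, 0.145% were below −1 and 0.436% above 1. The 0.145% were 9 genes, and 3 of these were *Scgb3a2*, *Sftpc* and *Sftpb*. The other 6 were *Bpifa2*, *Cxcl15*, *Fos*, *Smpd3*, *Egr1* and *Ttr*. Of the 9 members, 5 had a higher level above this median, and *Abca3* and *Cyp2f2* were those not past the limit. *Sftpc* lay above 7.21 on both arrays, while *Scgb3a2* and *Sftpb* passed this median only through the +/+-titled array, on which they were higher. Since the members were also chosen on these differences, nothing is read from their number here.

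Genes with the pattern most like that of the members were taken as the 10 non-members of the most negative difference among 6191 that lay above the median of all genes on the +/+-titled array. Likeness rests on a single difference between 2 arrays. *Bpifa2*, which encodes a secreted protein of salivary gland and airway, was at 7.92 and 4.88 on the +/+- and −/−-titled arrays, a difference of −3.06. *Cxcl15*, a chemokine gene known as lungkine for its expression in lung epithelium, was at 7.32 and 4.56, a difference of −2.78. *Slc34a2*, the phosphate transporter of type II cells, was at 7.19 and 5.95, a difference of −1.26. The differences of *Bpifa2* and *Cxcl15* were thus near in size to those of *Sftpc* and *Scgb3a2*, and *Slc34a2* was close to *Sftpb*. These non-members were picked for such differences and lay below the probe set median of the −/−-titled array, so nothing is read from the likeness. *Fos* and *Egr1*, immediate-early transcription factors, differed by −1.38 and −1.07. *Smpd3*, a sphingomyelinase gene active in bone and cartilage, differed by −1.15, and by −2.89 for its weaker probe set. *Ttr*, the thyroxine carrier of liver and choroid plexus, differed by −1.0, and by −1.10 and −1.32 for its other probe sets. *Smpdl3a*, *Ihh* and *Rarb* completed the 10, at −0.95, −0.91 and −0.90.

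Other genes of the lung were read from 6 lists that together held 64 measured genes outside the members. Of these, 42 (65.6%) were lower on the −/−-titled array, beside 49.5% of all genes, 8 (12.5%) were below −1, beside 4.07% of all genes, and none was above 1. With the raised floor 3 were below −1, and by the probe set of the largest difference of each gene 12 were below −1 and 2 above 1. The share of all genes under these other settings is not given here, so 4.07% is no measure for these counts. The median difference of the 64 genes was −0.060. A gene listed at 0 on both arrays, which in these lists was *Csf2rb*, counts as lower through the centring. The 8 were *Slc34a2*, *Hc*, *Cldn18*, *Aqp5*, *Elf5*, *Tbx4*, *Tcf21* and *Upk3b*, and the higher level of each was below the median of all genes. *Tcf21* is named for its level in its list, and the other 7 because of their values. Whether any of the 8 is particular to lung was not tested. Among genes above that median 0.145% were below −1, so 4.07% is no share of genes of like level. Since the lists were chosen with earlier results of these data known, nothing is read from these counts.

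Among 11 genes of type II cells, 7 were lower and 3, *Slc34a2*, *Cldn18* and *Hc*, were below −1, with a median of −0.051. *Cldn18*, whose lung form seals the alveolar epithelium, was at 5.37 and 3.51, a difference of −1.88. The paper also places this tight junction gene in the stria vascularis, so its reading is not particular to lung. The study selected *Cldn18* on arrays of this experiment, so its direction here is no independent evidence. Complement C5, *Hc*, was at 4.23 and 1.41, a difference of −2.84 at low level. The genes of the highest level differed less, with *Fabp5*, a fatty acid binding protein, at 0.16, *Lpcat1*, which remodels phosphatidylcholine, at −0.0031, *Ptprf*, a receptor phosphatase, at −0.051. *Ctsh*, a protease that processes surfactant proteins, differed by −0.40, more than *Abca3*, where the SD between probe sets was 0.103. Many tissues express these 4 genes, and their levels were above 8 on both arrays. Whether the lower genes of this list are particular to lung was not tested.

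Of 8 genes of type I cells, 6 were lower and 1, the water channel gene *Aqp5*, was below −1, at 4.17 and 2.93. *Igfbp2*, *Cav1*, *Pdpn* and *Emp2*, the genes of the highest level in this list, differed by −0.093, 0.17, −0.14 and −0.18. Of 11 airway secretory and ciliated cell genes, 6 were lower, 5 higher and none past 1, with a median of −0.040. Among them *Cbr2*, a carbonyl reductase of club cells, differed by 0.088, *Tppp3*, a microtubule protein, by 0.37, *Aldh1a1*, a retinal dehydrogenase, by 0.25 and the basal keratin *Krt15* by 0.67. The secretoglobin *Scgb3a1*, named for its family, was at 5.27 and 5.36. The airway list thus did not share the wide differences of *Scgb1a1* and *Scgb3a2*.

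Lipid synthesis and handling genes that surfactant needs and that many cells use showed no such difference. Of 13, 5 were lower, 8 were higher and none passed 1 in either direction, with a median of 0.016. *Acly* and *Fasn*, enzymes of fatty acid synthesis, differed by 0.0032 and −0.14. The receptor gene *Csf2rb* was listed at 0 on both arrays.

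Of 14 transcription factors of lung epithelium, 11 were lower, but 1 alone, *Elf5*, was below −1, at levels of 4.81 and 3.0. *Id2*, *Sox9*, *Klf5* and *Sox2*, the factors of the highest level and all known from other epithelia or cartilage too, differed by −0.065, −0.15, −0.064 and −0.036. *Nkx2-1*, the activator of surfactant genes, was at 2.85 and 2.31 on the +/+- and −/−-titled arrays, and *Foxa2* at 5.65 and 5.08, differences of −0.56 and −0.59. These 2 genes are named for their role, and the *Nkx2-1* readings lay below the 25th percentile of both arrays. Of 9 genes of lung mesenchyme and lining, 8 were lower and 3 below −1, with a median of −0.40 that was 0 with the raised floor, and none had a higher level above the median of all genes. *Tcf21*, a factor of lung mesenchyme, was at 6.29 and 3.26, a difference of −3.05, and the mesothelial gene *Msln* was at 6.58 and 6.43, a difference of −0.17.

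**Figure D3:**
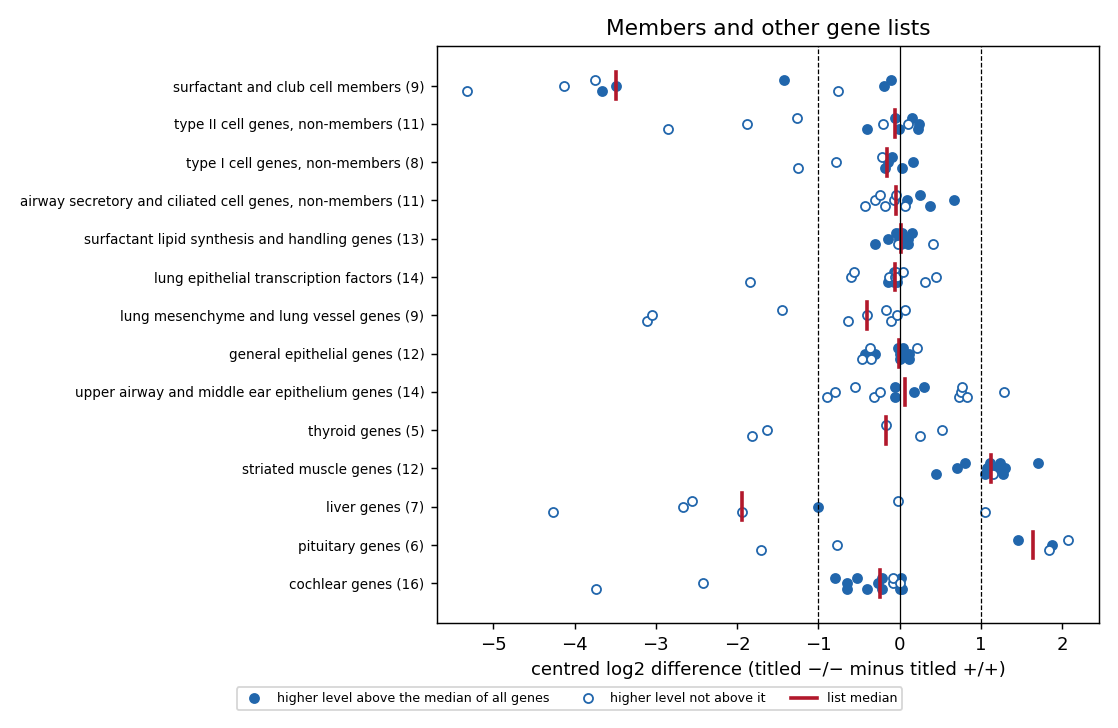
Centred log2 difference of each gene in the members and in 13 other gene lists, with the number of measured genes in parentheses, filled where the higher of both levels was above the median of all genes and open where it was not. The red bar is the list median, at −3.49 for the members and between −0.40 and 0.016 for the 6 lung lists. The size of −3.49 depends on the handling of low readings and of further probe sets. Points are shifted vertically for clarity, and the dashed lines mark 1 and −1.

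Genes of epithelia near the cochlea and of other tissues that a dissection could hold were read beside these values. Of 14 genes of the upper airway and middle ear epithelium, 7 were lower and 7 higher, with a median of 0.067. One gene passed the limit, the trefoil factor *Tff2*, named because of its value, at 1.10 and 2.41 near the floor. Summed linear levels of the list were 4263 and 4283 on the +/+- and −/−-titled arrays, most of them from *Bpifa1* alone. *Bpifa1*, a major secreted protein of nasal and upper airway epithelium, was at 11.63 and 11.60, a difference of −0.050. Its level was thus high and even on both arrays, as was that of *Cyp2f2*. In the same list the keratins *Krt5* and *Krt14* differed by 0.18 and 0.30. Of 12 genes common to many epithelia, 6 were lower and 6 higher and none passed 1, with *Krt8* at 0.12, *Krt18* at 0.038, *Cldn3* at −0.30 and the cadherin gene *Cdh1* at −0.43. Of 5 thyroid genes, which share NKX2-1 with lung, 3 were lower and 2 were below −1. These were thyroglobulin, *Tg*, at −1.81 and the iodide transporter *Slc5a5* at −1.64. On the +/+- and −/−-titled arrays *Tg* was read at 3.71 and 1.92 and *Slc5a5* at 4.91 and 3.30. The thyroid list median of −0.16 was 0 with the raised floor. None of the 5 was above the median of all genes on either array.

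Lists of tissues outside the ear differed between the arrays in both directions. All 12 genes of striated muscle were higher on the −/−-titled array, 9 of them above 1, with summed linear levels of 12637 on the +/+-titled array and 21633 on the −/−-titled array. Of 6 pituitary genes, 4 were above 1 and 1 was below −1, with sums of 283 and 918 and 1 gene listed at 0 on the +/+-titled array. Of 7 liver genes, 5 were below −1, 1 was above 1 and 1 was listed at 0 on both arrays, with a further 1 at 0 on the −/−-titled array. Their sums were 5265 and 2637, nearly all from *Ttr*, which the choroid plexus expresses too. *Afp* was at 5.42 and 1.18 and *Alb* at 6.14 and 4.22. The list medians were −1.94 for liver, 1.65 for pituitary and 1.13 for muscle. With the raised floor the liver and pituitary medians were −0.35 and 0.42, of the same sign and smaller. The part of lung tissue, or of any other tissue, in the levels of the 9 genes was not tested, and the lung arrays of the study were not analysed here.

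**Figure D4:**
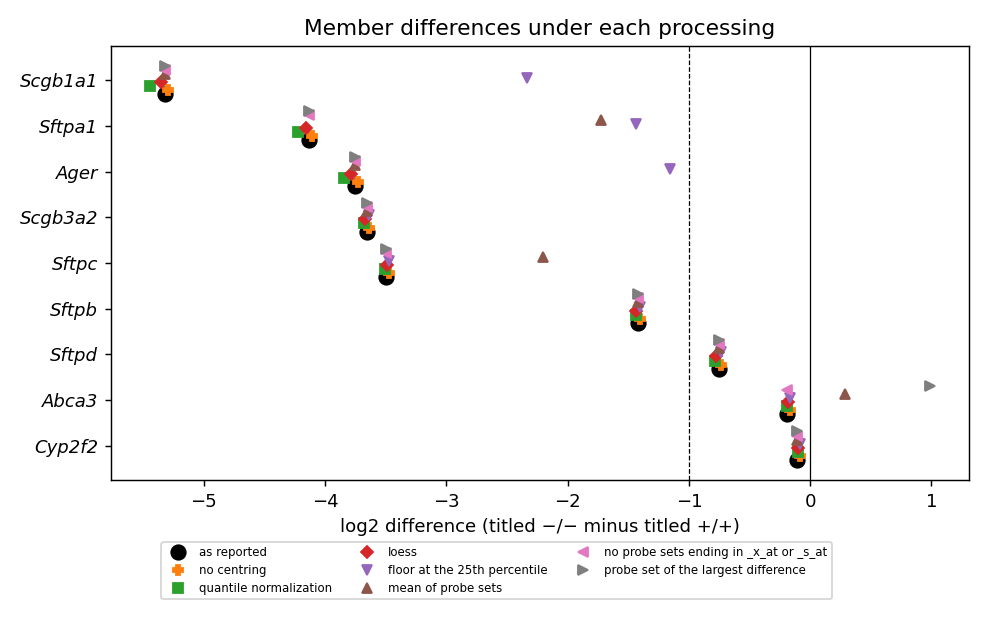
Log2 difference (array titled −/− minus array titled +/+) of the 9 genes as reported (black circles) and under 7 other ways of processing, shifted vertically for clarity. The solid line is 0 and the dashed line −1. *Scgb3a2*, *Sftpb* and *Sftpd* barely move, *Scgb1a1*, *Sftpa1* and *Ager* move toward 0 with the raised floor, and *Abca3* crosses 0 when its other probe sets are used.

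Under all 7 other ways of processing the values, the same number of members, 6, was below −1 and none was above 1. The share of all genes under these settings is not given here. Since the members were chosen on these differences, nothing is read from the count. The folds of *Sftpc*, *Scgb3a2* and *Sftpb* with the raised floor were 11.1, 12.4 and 2.64, and those of *Scgb1a1*, *Sftpa1* and *Ager* were 5.06, 2.71 and 2.23. The former 3 genes lay above that floor on both arrays, so raising it could change them only through the centring. The latter 3 lay below it on the −/−-titled array, so their folds became smaller by construction. By its title, the array with the lower surfactant and secretoglobin levels is that of null embryos, and by its source name it is that of wild type embryos, so the genotype behind the direction cannot be told apart from the labels.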

How the data were processed

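Cochlear RNA of E18.5 mouse embryos was labelled with biotin by the authors, hybridised to Affymetrix MOE430A arrays and scanned. MAS5.0, RMA and multi-mgMOS (PUMA) are named in their methods. For the deposited file the software, its version and the scaling between arrays are not given in the sources used here. Each probe set has a deposited log2 level, up to 13.64 without the controls, with the lowest at 0 (1310 and 1028 probe sets on the arrays titled +/+ and −/−). The base was read from the values, the largest of which exceed 11.09, the natural log of the largest 16-bit intensity.

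Of 22690 probe sets, 64 controls were left out, 20380 had 1 symbol in the platform annotation, 691 several and 1555 none, and none was named from several. The members and gene lists were chosen with earlier results of these data known. Named are all members, the 4 genes of each list of the highest level on the array titled +/+, genes of high level past 1, and the 10 non-members of the most negative difference; not all are printed. No test was made with 1 array per title. Linear levels of different members are not compared here, since probe sets differ in affinity. The summed linear levels of lists share this limit and are descriptions only. Alternatives were no centring, quantile normalization, loess (span 0.3), a floor at the 25th percentile of both arrays, the mean of a gene's probe sets, the probe set of the largest difference, omission of _x_at and _s_at probe sets, and size limits of 2 and 0.5. Steps were tested on simulated data. Python 3.11.15, numpy 2.4.6, pandas 2.3.3, statsmodels 0.14.6 and matplotlib 3.10.9 were used.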

Additional observations from a re-analysis of the deposited data

How the results depend on the processing

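Of 63 differences of single members recomputed under the 7 ways of processing, none past 1 log2 unit changed sign and 7 moved by more than the SD between probe sets. With the raised floor the differences of *Scgb1a1*, *Sftpa1* and *Ager* were −2.34, −1.44 and −1.16, by construction, since their levels on the array titled −/− lie below that floor. With probe sets averaged, *Sftpc* was at −2.20, *Sftpa1* at −1.72 and *Abca3* at 0.29, and *Abca3* was at 0.98 for its probe set of the largest difference, so its sign turned under both settings. The median of the members, −3.49, became −1.40 with the raised floor, −1.72 with probe sets averaged and −1.42 over the 5 members of high level. *Scgb3a2* and *Sftpb* are among these 5 only through the array titled +/+. The number of members lower by more than the limit was 5 at a size limit of 2 and 7 at a limit of 0.5. No share of all genes stands beside these numbers. Of the genes in the 6 lung lists, 3 in place of 8 were below −1 with the raised floor. The probe set of the largest difference gave 12 below −1 and 2 above 1. For these settings the share of all genes is not given, so the counts have no background beside them. Leaving out an array was not possible with 1 per title. No paired analysis was possible because each title has a single array. Depth has no counterpart here, and the distance from the floor limits *Scgb1a1*, *Sftpa1* and *Ager*.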
